A study of Bos taurus with 4 samples.

Results

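The regions described here are 632 autosomal piRNA loci of bovine oocytes that are shorter than 10 kb. They were taken from the piRNA cluster names that the deposited annotation gives to sequenced small RNAs. The 1159 cluster names were merged wherever they overlapped by at least 1 bp, which left 956 loci, and every autosomal locus of under 10000 bp was kept except 6 that hold many reads each. The 632 loci carry 713 of the names, and 77 of them join several names. A read of a sequence that is named in several loci was divided equally among them. Apart from the 6 left out, no read count entered the choice.

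Small RNAs were sequenced from bovine (Bos taurus) oocytes at the germinal vesicle stage, the fully grown oocyte before meiosis resumes. There were 2 input libraries, made from oocyte RNA without an antibody, and 2 libraries of RNA recovered by co-immunoprecipitation with an antibody against TDRKH (TDRKH IP). No IP with a control antibody was analysed here, so RNA held by TDRKH and RNA carried along in the IP cannot be told apart. Whether the 2 libraries of a group stem from different oocyte pools is not stated, and every p-value therefore reflects only how far these libraries scatter, which may be technical. They name no breed, age or number of animals for either group.

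PIWI-interacting RNAs, or piRNAs, are small RNAs bound by PIWI proteins in germ cells, where they guide the silencing of transposons. They are cut from long single-stranded precursors that come from discrete genomic regions called piRNA clusters, and most begin with uridine, written T in the sequencing reads. In the ping-pong cycle a piRNA directs a cut in a complementary transcript, and the new piRNA overlaps the first by 10 nt at the 5′ ends and tends to have A at position 10. TDRKH carries a tudor domain through which it holds PIWI proteins, and it takes part in trimming piRNA 3′ ends; PIWIL3, named in the study's title, is a PIWI protein of mammalian oocytes.

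Coordinates are those of the cluster names. Their genome build is not stated in the labels or files, and no gene annotation was set beside them. The sequences below are the most abundant of those named in 1 locus alone, for 4 of the 8 loci with the most reads. They are shown because single sequences made up a large part of the reads of some loci. The capitals mark T at position 1 and A at position 10, counted from the 5′ end.
chr26:17967057-17974590: TtcctgccaAgaagcaaagatcttctga
chr2:65713224-65718627: TcagcatgaAtccgccacaggtatt
chr29:24354070-24362549: TcatctcccAtggtagtaaggtc
chr23:14633006-14642017: TaaacaaacAgggtgacagcagacag
All 4 begin with T and have A at position 10. They held 27.4%, 58.0%, 8.29% and 13.4% of the reads of their loci, over the mean of the 4 libraries. In the other 4 of those 8 loci the leading sequence named in that locus alone held 0.651% to 4.46%. Each of the 4 sequences printed is listed with 1 mismatch to its locus, written here as locus base, position and read base: C19G for the locus on chromosome 26, C1T on chromosome 2, C13G on chromosome 29 and A13G on chromosome 23.

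Other reads of these loci belong to sequences that many loci share. The next 3 sequences were picked after their values were seen, as examples of sequences named in at least 20 of the 632 loci, and the capitals again mark T at position 1 and A at position 10.
sequence in 59 loci: TtttctggaActctcttgcttttt
sequence in 104 loci: Tctttgtgaccccatggactgtagcc
sequence in 62 loci: Tctttgtgaccccatggactgtagca
Of the loci that name them, 21, 47 and 28 are among the 632. The second is listed with mismatches that differ between its loci, among them G1T. The third differs from the second by C26A alone, counted from the 5′ end. The first was read at 1256 and 1707 RPM (reads per 1000000 listed reads of the library) in inputs 1 and 2 and at 1265 and 1104 RPM in TDRKH IPs 1 and 2. The second was read at 912.6 and 1227 RPM in the inputs and at 1353 and 1192 RPM in the IPs. In both, the input and IP libraries overlap. The third was read at 500.3 and 772.5 RPM in the inputs and at 1110 and 1036 RPM in the IPs, so both IPs lie above both inputs (log2 change 0.75 ± 0.22 SE, adjusted p = 0.00556 in edgeR's quasi-likelihood test over sequences).

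The input libraries held 1079364 and 1354003 listed reads and the TDRKH IPs 11138905 and 11060320. After division among loci, 94303 and 120107 reads of the inputs and 1247301 and 1221508 of the IPs fell in the 632 loci. The IPs were therefore read far more deeply than the inputs. For the share of reads that begin with T, the Wilson 95% interval in input 1 ran from 87.3% to 87.7%. It covers counting error only, since reads include PCR copies. Because the files list only annotated small RNAs, markers of oocytes or of other cells of the follicle were not checked.

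The 632 loci lay on all 29 autosomes, with between 5 (chromosome 27) and 40 (chromosome 19) on each. Their lengths ran from 5000 to 9997 bp with a median of 7924.5 bp, and together they covered 4839 kb. They lay mostly apart: the median gap to the nearest other locus was 405 kb, against 52.5 kb for the 324 loci outside the set, 74 of the 632 had a neighbour within 10 kb and 187 within 100 kb. Around the size limit, the 3 longest loci inside it measured 9995, 9995 and 9997 bp and had mean levels of 693.9, 146.2 and 482.4 RPM over the 4 libraries. The 3 shortest autosomal loci outside it measured 10002, 10007 and 10017 bp and had mean levels of 233.9, 68.2 and 147.1 RPM.

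The loci under 10 kb took a larger share of the listed reads in the TDRKH IPs than in the inputs. Their summed share was 8.74% and 8.87% in inputs 1 and 2, and 11.2% and 11% in TDRKH IPs 1 and 2. Both IPs lie above both inputs, and the gap between the groups is wide against the gap within them. In edgeR's quasi-likelihood test over 15 read classes the log2 change was 0.34 ± 0.03 (SE, adjusted p = 4.75e-11). For the 297 other autosomal loci of 10 kb or more it was 0.34 ± 0.02 (adjusted p = 7.22e-17). With sequences in 1 locus only the log2 changes were 0.20 for the loci under 10 kb and 0.36 for those of 10 kb or more, and with each distinct sequence counted once they were 0.40 and 0.57. For the 3 loci with the most reads, which are 152987 to 286831 bp long and take 56.0% to 59.1% of listed reads, it was 0.06 ± 0.01 (adjusted p = 2.20e-08). The difference between the classes was not tested in itself.

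The change of the loci under 10 kb is a change of share, and its size follows what it is a share of. Counted against reads of piRNA loci alone, the loci under 10 kb held 9.84% and 10.1% in the inputs and 11.6% and 11.4% in the IPs, and the log2 change was 0.20 (adjusted p = 3.66e-07, edgeR). With TMM factors it was 2.27 and with DESeq2's size factors 2.67, and these factors moved the median log2 change of all features up by 1.91 and 2.31, so the distance of these loci from that median hardly moved. With the 6 left-out loci added it was 0.15 (adjusted p = 1.18e-05, edgeR).

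Per length, the 632 loci were the sparsest of the autosomal classes, but this ranking does not cover the 6 left-out loci. Those 6 loci, also under 10 kb, averaged 1062 and 939 RPM per kb in the inputs and 787 and 779 in the IPs. The 632 loci averaged 18.1 and 18.3 RPM per kb in the inputs and 23.1 and 22.8 in the IPs. The other loci of 10 kb or more averaged 25.6 and 26.0 RPM per kb in the inputs and 32.7 in both IPs. The 3 loci with the most reads averaged 931 to 981 RPM per kb over the 4 libraries. Single loci under 10 kb ran from 0.207 to 1755 RPM in mean level over the 4 libraries, with a median of 82.1 RPM. There were 10 loci under 1 RPM, 276 at 100 RPM or more and 6 at 1000 RPM or more, and 617 of the 632 had a read in all 4 libraries.

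No single locus dominated the set, but the set was chosen without 6 loci under 10 kb that hold many reads each. Together those 6 held 44915 and 39727 RPM in the inputs and 33268 and 32933 RPM in the IPs. Among the 632 loci, the first held 1.76% of their summed RPM, the first 10 held 11.3%, the first 50 held 34.4% and the first 100 held 53.0%. Within loci the reads were also spread out: among the 493 loci with a mean of at least 20 RPM, the leading sequence held a median of 9.34% of the reads. In 39 of these it held at least 25%, and in 5 it held over 50%.

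Most reads of the loci under 10 kb were not theirs alone. Only 23.5% and 22.6% of their reads in the inputs and 20.9% and 21% in the IPs came from sequences named in 1 locus. In the 3 loci with the most reads that share was 95.5% to 96.0%, and in the other loci of 10 kb or more it was 50.1% to 51.7%. The loci under 10 kb were lower in all 4 libraries, by 73.8 ± 1.43 (SD, n = 4 libraries) percentage points against the first of these classes and by 28.8 ± 1.57 against the second. The exact permutation p over the 4 pairs of class values was 0.125 in both cases, the smallest that 4 pairs allow.

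Most of the shared reads of the loci under 10 kb were named in a large locus as well. Sequences also named in at least 1 of the 3 loci with the most reads gave 51.5% and 51.9% of their reads in the inputs and 52.7% and 51.7% in the IPs. Sequences also named in another autosomal locus of 10 kb or more gave 63.4% and 65.0% in the inputs and 67.9% and 67.8% in the IPs. Sequences named in several of the 632 loci and nowhere else gave only 3.56% to 3.97%. Single loci differed widely: of the 493 loci of at least 20 RPM, 101 had under 5% of their reads in sequences of their own and 17 had at least 75%.

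**Figure D1:**
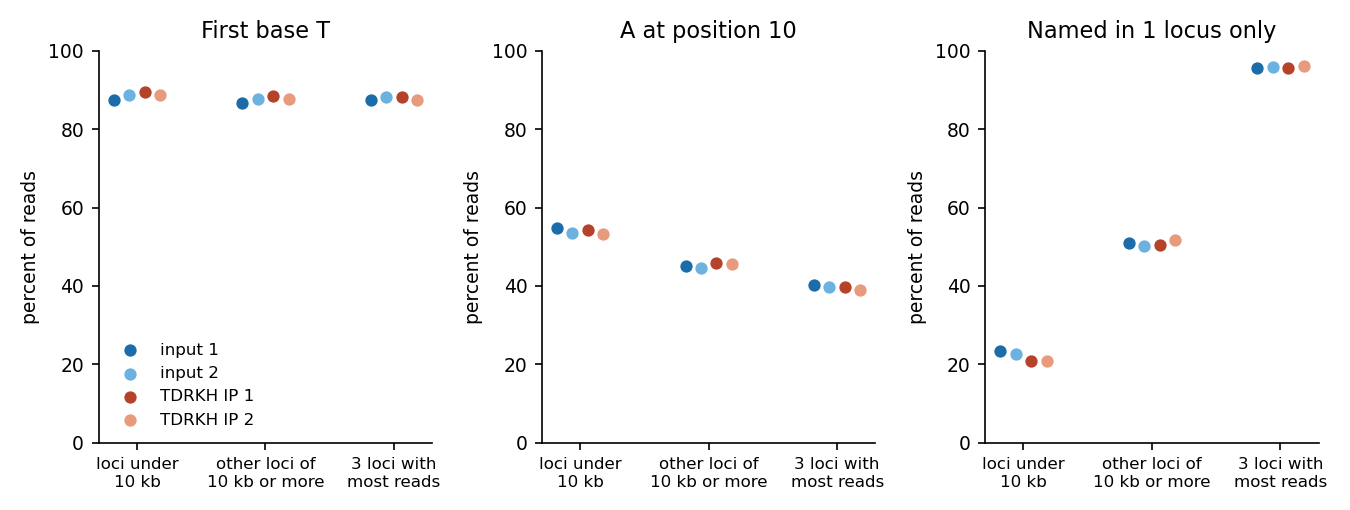
Percent of reads (vertical axes, 0 to 100) that begin with T, have A at position 10, or come from sequences named in 1 locus only, for the 632 loci under 10 kb, the 297 other autosomal loci of 10 kb or more and the 3 loci with the most reads; each point is 1 library. The first base hardly differs between the classes, A at position 10 is highest in the 632 loci under 10 kb (53.2% to 54.7%, but 42.4% over the 4 libraries with the 6 left-out loci added), and reads of 1 locus only are fewest there (20.9% to 23.5%).

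The reads of the loci under 10 kb had the length and first base of piRNAs. Reads of 24 to 32 nt made up 79.4% and 78.9% of them in the inputs and 77.5% and 76.0% in the IPs. The most frequent length was 26 nt, with 26.2% and 25.8% of the reads in the inputs and 24.5% and 23.7% in the IPs. Mean read length was 25.1 nt in both inputs, 25.05 nt in TDRKH IP 1 and 24.9 nt in TDRKH IP 2, and the groups do not overlap (difference 0.134 nt, exact permutation p = 0.333, the smallest that 2 against 2 libraries allows). The smaller share at 26 nt in the IPs went with larger shares at 20 to 23 nt. At 21 nt the share was 3.48% and 3.52% in the inputs and 4.01% and 4.29% in the IPs.

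**Figure D2:**
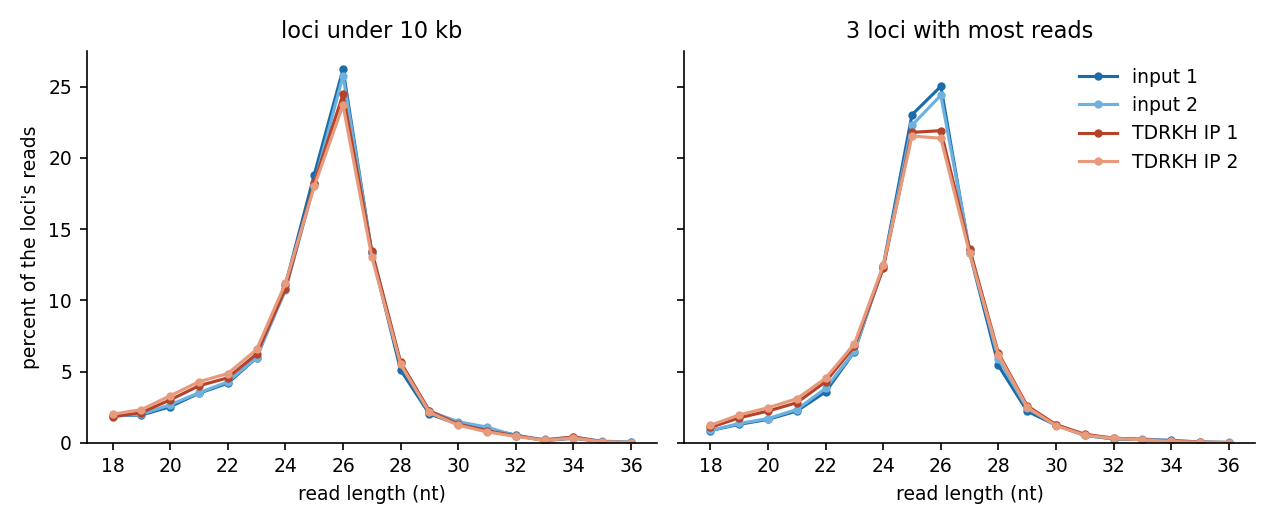
Read lengths of the 632 loci under 10 kb (left) and of the 3 loci with the most reads (right), as percent of the reads of those loci in each library (vertical axis) by length in nt (horizontal axis). Both peak at 25 to 26 nt, and in both the inputs lie above the IPs at 26 nt and below them at 20 to 22 nt.

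T was the first base of 87.5% and 88.6% of reads of the loci under 10 kb in the inputs and of 89.4% and 88.6% in the IPs. Input 2 and TDRKH IP 2 lie at nearly the same value, and the exact permutation p was 0.333. The shortest reads differed more by group: at 18 nt a mean of 74.7% of the input reads and 90.2% of the IP reads began with T, and at 19 nt 81.2% and 90.1%. At 26 nt the means were 91.1% and 90.9%. Over single loci of at least 20 RPM the share with T first had a median of 89.2%. It was at least 80% in 432 of 493 loci and under 70% in 14.

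A at position 10 was more frequent in these 632 loci than in the larger ones, but this turned against the other loci of 10 kb or more when the 6 left-out loci, also under 10 kb, were added: the share over the 4 libraries was then 42.4%, against 44.6% to 45.8% in those loci. They had it in 54.7% and 53.5% of reads in the inputs and in 54.3% and 53.2% in the IPs, so the groups overlap. The 3 loci with the most reads had it in 40.2%, 39.8%, 39.7% and 38.9%, in the same order of libraries. The loci under 10 kb were above them in all 4 libraries, by 14.3 ± 0.394 percentage points (SD, n = 4 libraries, exact permutation p = 0.125, the smallest that 4 pairs allow), and above the other loci of 10 kb or more by 8.64 ± 0.862 (the same p). The excess over the 3 loci was 17.4 points among sequences named in 1 locus only, 5.16 among sequences named in several loci and 10.98 when each distinct sequence counted once. The excess over the other loci of 10 kb or more was 16.6, 2.52 and 4.95 points in the same 3 cases.

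The share with A at position 10 depended on a few loci with strong leading sequences only in part. Without the 10 loci with the most reads it was 51.6% over the 4 libraries, against 53.9% with them. Among the 493 loci of at least 20 RPM it ran from 1.32% to 96.1% with a median of 51.9%, and it was at least 75% in 65 loci and under 25% in 62. Reads that begin with T had A at position 10 in 55.9% and 54.7% in the inputs and 55.0% and 54.0% in the IPs. Reads that begin with another base had it in 46.6% and 44.6% in the inputs and 48.2% and 46.5% in the IPs.

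At similar depth, opposite reads of the loci under 10 kb met most often with an overlap of 10 nt. A read was counted where the reverse complement of its first 10 bases opened a read of the same locus and library. A read whose first 10 bases are their own reverse complement thus counted as its own partner. Such reads can exist only at even overlaps, so not at 9 or 11 nt, and their part was not counted. The IPs were thinned to the number of reads of input 1. A partner was counted for 33.6% and 37.1% of reads in the inputs and 41.8% and 40.6% in the thinned IPs. At 11 nt the shares fell to 5.52% and 6.61% in the inputs and 12.4% and 10.5% in the IPs. At 9 nt they were 20.4% and 26.1%, and 29.5% and 30.4%. The peak at 10 nt was present in each input and each thinned IP, and the thinned IPs lay above the inputs at 9, 10 and 11 nt alike. Without thinning, the IPs stood at 55.1% and 54.8% at 10 nt and 24.8% and 26.1% at 11 nt. Their highest shares then lay at 6 nt, with 55.4% and 59.3%. The thinned IPs also held more distinct sequences per locus, a median of 655 and 633 against 478.5 and 571 in the inputs, and the part of this in the difference was not tested.

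**Figure D3:**
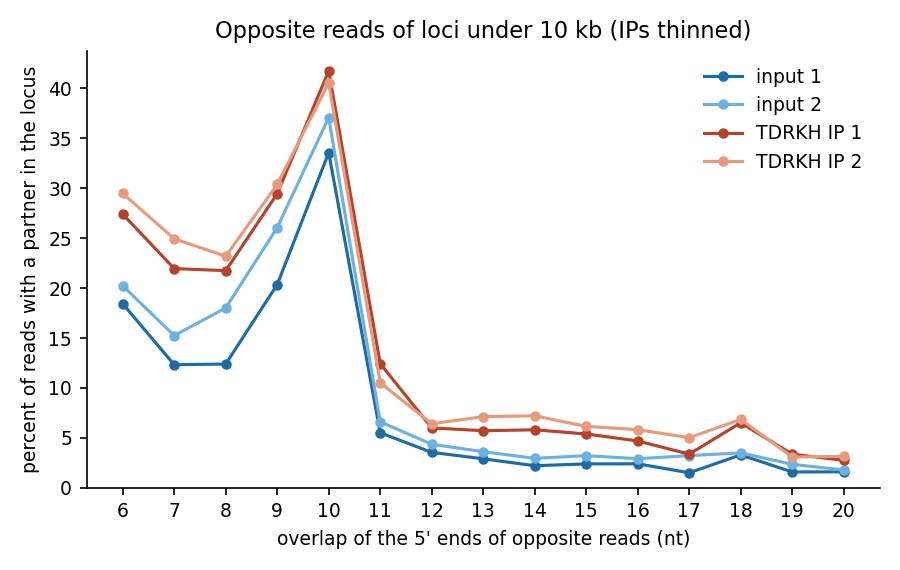
Percent of reads of the 632 loci under 10 kb that have an opposite read in the same locus and library (vertical axis), by the overlap of the 5′ ends in nt (horizontal axis), with 1 line per library and the IPs thinned to the reads of input 1. At even overlaps, a read whose opening bases are their own reverse complement counts as its own partner. All 4 lines peak at 10 nt, between 33.6% and 41.8%, and drop at 11 nt, while overlaps of 6 to 9 nt lie between the 2 levels.

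Reads named in a single locus, counted in the same way, met far less often, but at the same distance. Among them the share at 10 nt was 3.23% and 4.99% of reads in the inputs and 6.19% and 6.48% in the thinned IPs. At 11 nt it was 0.0406% and 0.351% in the inputs and 0.135% and 0.310% in the IPs, and at 9 nt it was 1.77%, 3.23%, 1.75% and 1.63% in inputs 1 and 2 and IPs 1 and 2. The values at 10 nt for all reads therefore rest mostly on sequences that several loci share, for which the locus of origin is not known. In the 3 loci with the most reads the share at 10 nt was 33.5% to 38.2%, but these long loci hold far more distinct sequences each and their share at 8 nt was 48.1% to 51.7%, so the classes are not compared here.

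The pairs below are the 3 with the highest level of the rarer partner among the 100 loci with the most reads, counting only sequences named in 1 locus. They show what such an overlap looks like: the capitals mark the first 10 bases, and within a pair each run of capitals is the reverse complement of the other.
chr10:75102001-75107935 first: TCCATCTGGAgcgcggaaatcctct
chr10:75102001-75107935 second: TCCAGATGGAgacttcagccagaat
chr3:51892032-51899331 first: TCATTGTACAtctccatcagggctct
chr3:51892032-51899331 second: TGTACAATGAgattaaggttgtttt
chr8:81382054-81391012 first: TTTGCTCAAAttcatgtctgttaagt
chr8:81382054-81391012 second: TTTGAGCAAActcctggaaaccgtg
All 6 have T at position 1 and, as the reverse complement requires, A at position 10. On chromosome 10 the first sequence was read at 67.6 and 102 RPM in the inputs and 100.5 and 109 RPM in the IPs, and the second at 3.71 and 10.3 RPM and at 11.4 and 13.2 RPM. On chromosome 3 the first was read at 29.6 and 40.6 RPM in the inputs and 73.9 and 55.0 RPM in the IPs, and the second at 1.85 and 2.22 RPM and at 5.84 and 8.59 RPM. In these 2 pairs one partner was many times more abundant in each library. On chromosome 8 both partners were at or below 7.41 RPM, and the second had no read in input 2, where 3 reads would be 2.22 RPM.

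Single loci were then compared between TDRKH IP and input in 1 fit over 38408 features, in which each other name of the files is a feature too. The filter on low counts left 5211 features and 611 of the 632 loci. Of these loci, 591 reached the filter's level in all 4 libraries, 8 in the inputs only and 1 in the IPs only, and 21 were not tested. Higher in the TDRKH IP were 369 of the 611 tested, where 15% of all features were higher and 63.7% of all piRNA loci were. Lower were 22, where 60.3% of all features and 3.64% of all piRNA loci were lower. The share of loci under 10 kb called higher, 60.4%, is near that of all piRNA loci, but these 611 loci are themselves part of the 935 piRNA loci tested. Of the other autosomal loci of 10 kb or more, 71.4% (212 of 297) were called higher and 2.36% lower. The difference between these classes was not tested. The background over all features holds many other RNAs that were lower. Leaving out any library lowered the number of calls in both directions, among these loci and among all features alike. The median log2 change of the loci tested then stayed between 0.36 and 0.41.

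The changes were small. The median log2 change of the 611 loci was 0.38, against -2.63 over all features and 0.36 over all piRNA loci tested. Among those called, 10 of 369 rose at least 2-fold and 13 of 22 fell at least 2-fold. Over all piRNA loci tested these counts were 11 of 596 and 17 of 34, and over all features they were not counted. Of the 13 falls, 11 were in loci with a mean under 20 RPM. The 8 loci that reached the filter's level in the inputs only could be called lower more readily, and their part in the 13 was not counted. Both IPs were above both inputs for 464 of the 611 (23.1% of all features) and below them for 51 (65.4% of all features). Calls were unevenly spread over levels: 228 of 276 loci of 100 RPM or more were called higher, 129 of 217 between 20 and 100 RPM and 12 of 118 below 20 RPM.

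**Figure D4:**
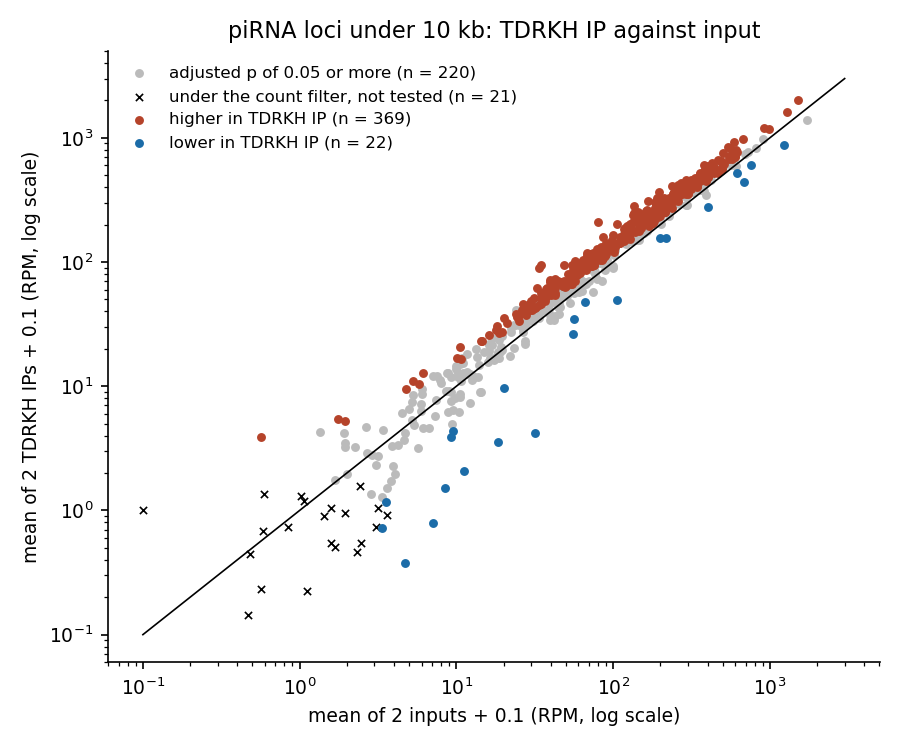
Mean level in the 2 TDRKH IPs against that in the 2 inputs for the 632 loci under 10 kb (both axes RPM + 0.1, log scale; the line marks equal levels), with loci coloured by edgeR's call at an adjusted p of 0.05. Most of the 369 loci called higher lie just above the line. Below 20 RPM only 12 of 118 tested loci were called higher, and 5 of these rose at least 2-fold. The 22 called lower include 13 that fell at least 2-fold, most of them at low levels.

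The reads of the loci under 10 kb were also split by how many loci their sequences name. Reads of sequences named in 1 locus summed to 20547 and 20009 RPM in the inputs and 23376 and 23156 RPM in the IPs, a log2 ratio of 0.20. The log2 ratio was 0.21 for sequences in 2 to 5 loci, 0.43 in 6 to 20, 0.45 in 21 to 100 and 0.70 in over 100 loci. Sequences in over 100 loci gave 2354 and 2661 RPM in the inputs and 4111 and 4055 RPM in the IPs. In each of the 5 classes both IPs were above both inputs (exact permutation p = 0.333, the smallest possible), and the differences between the classes were not tested.

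By locus, among the 44 tested loci with at least 75% of their reads in 1 locus only, 6 were called higher and 7 lower, and the median log2 change was -0.17. Among the 302 loci with 5% to under 25%, 202 were called higher and 5 lower, with a median of 0.41. When only sequences named in 1 locus were counted, 105 loci were called higher and 56 lower of 566 tested, where 6.88% of all features in that fit were higher and 61.7% lower, and the median of the loci was 0.14. Many of the loci with few shared reads were also low in level, and the part of depth in these counts was not tested.

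Rank correlations of the change with other properties of the loci were weak. Over the 493 loci of at least 20 RPM, Spearman's rho with the log2 change was 0.10 for length, -0.05 for mean level, -0.01 for the share of reads in 1 locus only, -0.01 for the share with T first, -0.05 for the share with A at position 10, -0.15 for mean read length and 0.08 for the share with a 10-nt partner. It was 0.25 for the share of reads with a noted mismatch to the locus. These are descriptions over loci that share libraries and sequences. The share with a 10-nt partner was counted here over all reads of the 4 libraries, without thinning. Over all reads of the set, mismatches were noted for 61.1% and 55.9% in the inputs and for 48.5% and 48.6% in the IPs, so they were fewer in the IPs.

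The locus with the most reads, chr26:17967057-17974590, stood at 1504 and 1520 RPM in the inputs and 2160 and 1836 RPM in the IPs. Both IPs were higher (log2 change 0.40 ± 0.08 SE, adjusted p = 0.00231, edgeR). Without input 1 or without input 2 the change was 0.39 or 0.41 and was no longer called (adjusted p = 0.151 and 0.141). Its first sequence above gave 398.4 and 471.9 RPM in the inputs and 596.2 and 459.6 RPM in the IPs, where the groups overlap (adjusted p = 0.270, edgeR over sequences). Of its reads, 69.8% were named in this locus alone, 84.8% carried a noted mismatch, 94.6% began with T and 81.5% had A at position 10. A 10-nt partner was found for 79.9% over all libraries together. Here and below, this share of single loci counts all reads without thinning, so it rests mostly on the deeper IPs. It includes reads whose first 10 bases are their own reverse complement. Counted without thinning, the 632 loci had 33.6% and 37.1% in the inputs and 55.1% and 54.8% in the IPs.

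The second locus by level, chr2:65713224-65718627, had the most reads per length of the set, 287.9 RPM per kb. It stood at 1969 and 1485 RPM in the inputs and 1575 and 1195 RPM in the IPs, so input 2 lay below TDRKH IP 1 and the groups overlap (log2 change -0.32 ± 0.16 SE, adjusted p = 0.1002, edgeR). Without TDRKH IP 1 it was called lower (-0.53, adjusted p = 5.97e-08). Its leading sequence gave 1247 and 846.4 RPM in the inputs and 887.4 and 627.3 RPM in the IPs. In this locus 89.1% of reads carried a noted mismatch and 92.6% had A at position 10, but only 5.30% had a 10-nt partner.

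The third to the fifth locus were higher in the IPs. The locus chr4:12620878-12630499 stood at 1301 and 1277 RPM in the inputs and 1627 and 1582 RPM in the IPs (log2 change 0.32 ± 0.05 SE, adjusted p = 0.000796, edgeR), with only 8.15% of its reads in sequences of its own. The locus chr3:91457001-91466005 went from 1007 and 956.2 RPM to 1207 and 1141 RPM (0.26 ± 0.06, adjusted p = 0.00440), and chr29:24354070-24362549 from 916.7 and 917.8 RPM to 1305 and 1073 RPM (0.37 ± 0.09, adjusted p = 0.00718). In these 3 loci no input reached the level of either IP. The sixth, chr1:94550396-94556945, was lower in both IPs, at 907.7 and 833.5 RPM against 1322 and 1133 RPM in the inputs (-0.49 ± 0.08, adjusted p = 0.00102). In edgeR fits without input 1 or without input 2, the loci on chromosomes 3 and 29 were no longer called (adjusted p = 0.0592 and 0.0956 for chromosome 3, 0.221 and 0.220 for chromosome 29), and without input 1 that on chromosome 1 was not (adjusted p = 0.0636).

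Of the 15 loci with the most reads, 9 were called higher, 1 lower and 5 neither, and the call of 1 more of the 9, chr8:81382054-81391012 at 574.2 and 605.2 RPM in the inputs and 859.8 and 999.1 RPM in the IPs, was lost without input 1 or without input 2 (adjusted p = 0.0739 and 0.0600, edgeR). Besides the second locus, those not called were chr1:24843004-24848302, chr16:61871008-61877017, chr1:150108001-150113978 and chr19:44616212-44624700, with log2 changes of 0.12, 0.04, 0.07 and 0.08. The last of these stood at 686.5 and 703.5 RPM in the inputs and 739.2 and 734.4 RPM in the IPs. It was unusual in 3 ways: 95.7% of its reads lay in this locus alone, 99.4% carried a noted mismatch to it, and 92.6% had A at position 10 although only 0.311% had a 10-nt partner. The locus chr21:62006013-62016007 had the reverse makeup, with 1.72% of reads of its own, a mean length of 22.9 nt, A at position 10 in 17.6% and a 10-nt partner for 72.4%, and it rose from 546.3 and 541.0 RPM to 888.0 and 800.2 RPM (0.64 ± 0.07, adjusted p = 0.000144, edgeR).

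**Figure D5:**
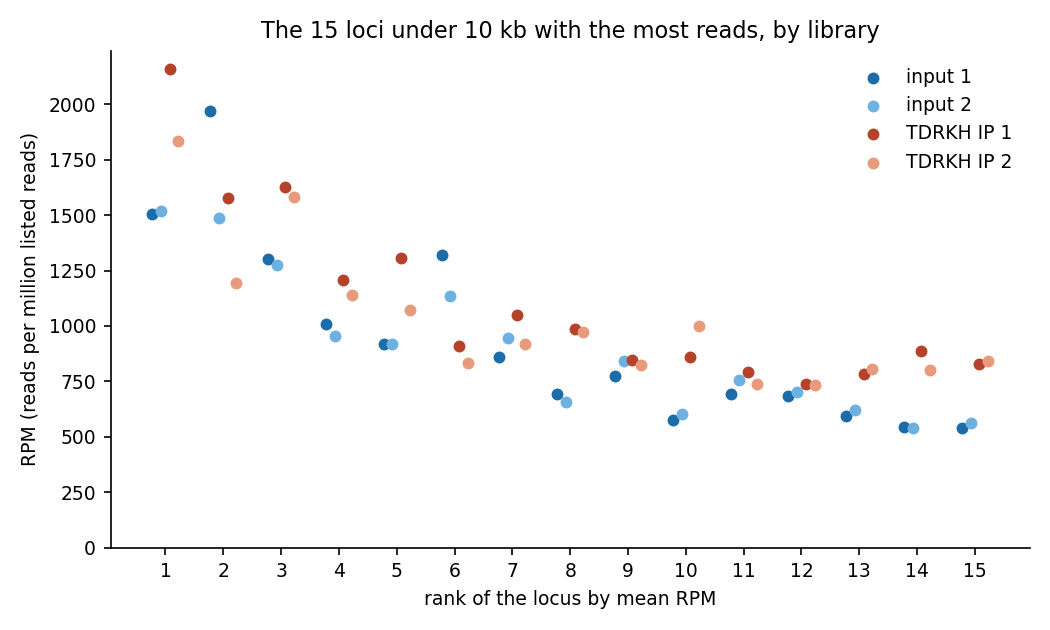
Level in each library (RPM, vertical axis from 0) of the 15 loci under 10 kb with the most reads, ordered by mean level (horizontal axis); each point is 1 library. Both IPs lie clearly above both inputs in 9 loci, the sixth locus is the one where both lie clearly below, and in the second locus the groups overlap (1485 to 1969 RPM in the inputs, 1195 to 1575 RPM in the IPs).

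Among loci of at least 20 RPM with a call and groups that do not overlap, the 6 largest rises ranged from 0.94 to 1.46 on the log2 scale. The locus chr17:45160136-45167945 stood at 35.9 and 33.0 RPM in the inputs and 88.7 and 101.1 RPM in the IPs (1.46 ± 0.15 SE, adjusted p = 9.20e-05, edgeR). The locus chr2:136442263-136449985 went from 37.2 and 29.5 RPM to 83.2 and 94.0 RPM (1.43 ± 0.16, adjusted p = 0.000143), and chr28:3354513-3362028 from 74.5 and 84.9 RPM to 179 and 238 RPM (1.38 ± 0.18, adjusted p = 0.000293). In all 3 the IPs were over 2 times the inputs. The call on chromosome 28 was lost in edgeR fits without input 1 or without input 2 (adjusted p = 0.100407 and 0.0874).

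Most reads of these 3 loci came from sequences that they share with others. The leading sequences, chosen after their values were seen, are printed with T at position 1 and A at position 10 in capitals.
leading in the first and the second: TtgaaggatAattgatttacagaatt
leading in the third: TtggacatgActtagaaactgaaca
Among their loci, the first is listed with the mismatch C15A and the second with C16A and G10A. The marked A of the second is thus not the listed base in each of its loci. The first was named in 8 loci, 2 of them among the 632, and rose from 65.8 and 70.2 RPM to 181 and 194 RPM (1.46 ± 0.26 SE, adjusted p = 1.78e-05, edgeR over sequences). It gave 24.7% and 26.1% of the reads of these 2 loci, so the loci on chromosomes 17 and 2 are not independent cases. The second was named in 2 loci and rose from 52.8 and 69.4 RPM to 174 and 220 RPM (1.68 ± 0.27, adjusted p = 3.35e-06), with 44.8% of the reads of the locus on chromosome 28. Sequences of their own gave only 4.05% to 9.54% of the reads of the 3 loci over the mean of the 4 libraries. There were 3 to 8 such reads per locus in each input, too few to give a change. At chr2:136442263-136449985 they were 8 of 40 and 6 of 40 reads in the inputs, and 21 of 927 and 10 of 1040 in the IPs. In the loci on chromosomes 17 and 28 the share was also smaller in both IPs.

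The other 3 large rises rested on reads of their own to different degrees. The locus chr1:147708009-147717020, with 67.4% of its reads in this locus alone, stood at 141 and 129 RPM in the inputs and 278 and 287 RPM in the IPs (1.07 ± 0.08 SE, adjusted p = 2.27e-05, edgeR). The locus chr21:22144132-22150012, with 60.9%, went from 56.9 and 40.1 RPM to 91.5 and 98.4 RPM (1.00 ± 0.15, adjusted p = 0.000702), and chr4:47397016-47405950, with 16.2%, from 97.0 and 114 RPM to 202 and 206 RPM (0.94 ± 0.09, adjusted p = 9.35e-05). The call on chromosome 21 was lost without input 2 (0.75, adjusted p = 0.0504). In the first of these 3 loci 96.1% of reads began with T, 86.9% had A at position 10 and 89.1% had a 10-nt partner. A mismatch was noted for 95.6%, 61.2% and 47.4% of the reads of the 3 loci, in the order given.

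The 6 largest falls under the same rule ranged from -0.49 to -1.09, and with TMM or DESeq2's size factors the same 6 loci lay between 0.84 and 1.84. The locus chr2:108283009-108289534 stood at 110 and 99.6 RPM in the inputs and 50.5 and 47.8 RPM in the IPs (-1.09 ± 0.11 SE, adjusted p = 9.45e-05, edgeR). The makeup of its reads differed by group, with T first in a mean of 26.4% of reads in the inputs and 81.4% in the IPs. By these means its fall lay in reads that begin with another base, and its reads that begin with T were not fewer in the IPs. Its mean read length over the 4 libraries was 22.4 nt. The locus chr8:76987014-76995631 went from 64.4 and 47.0 RPM to 29.6 and 22.99 RPM (-1.07 ± 0.21, adjusted p = 0.00233), and chr7:12439458-12447978 from 59.5 and 52.7 RPM to 35.1 and 33.8 RPM (-0.69 ± 0.14, adjusted p = 0.00237). In these 3 loci both IPs lay below both inputs, and in edgeR fits without input 1 or without input 2 the call on chromosome 8 was lost (adjusted p = 0.159 and 0.0750).

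The leading sequences named only in the first and the last of these 3 loci are short, and they are shown because both were nearly absent from the IPs. Capitals mark T at position 1.
chr2:108283009-108289534: gccacccacccgacccgtc
chr7:12439458-12447978: Taacctccctctctggcca
Both have 19 nt, and neither has A at position 10. The first is listed without a mismatch and the second with C1T, so its marked T is not the listed base of the locus. The first was read at 14.8 and 17.7 RPM in the inputs and 0.0898 and 0.181 RPM in the IPs. It made up 10.6% of the reads of its locus. The second was read at 11.1 and 9.60 RPM in the inputs and at 0 and 0.0904 RPM in the IPs, where 3 reads in TDRKH IP 1 would be 0.269 RPM. Both sequences were therefore present in both inputs and at or near 0 in both IPs. The leading sequence named only in the locus on chromosome 8 was not: it had 0 and 2.22 RPM in the inputs and 2.69 and 1.36 RPM in the IPs. With shared sequences included, that locus was led by one at 7.41 and 5.17 RPM in the inputs and 12.3 and 9.13 RPM in the IPs. The locus on chromosome 7 was then led by the sequence in 104 loci printed above, whose groups overlap.

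The fall of the fourth locus, chr1:109657277-109663770, came at a higher level, from 697 and 676 RPM in the inputs to 435 and 453 RPM in the IPs (-0.63 ± 0.06 SE, adjusted p = 6.66e-05, edgeR). T came first in 90.4% of its reads, their mean length was 25.96 nt, 62.2% were its own and 83.7% had a 10-nt partner, but only 7.73% had A at position 10. The locus chr8:33370134-33375873 went from 430 and 375 RPM to 282 and 274 RPM (-0.53 ± 0.08, adjusted p = 0.000611). The sixth is the locus on chromosome 1 described among those with the most reads, in which 88.5% of reads had A at position 10. The loci that fell thus ranged from 7.73% to 88.5% in that share.

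Sequences were also tested one by one, where they had at least 10 RPM in at least 2 libraries. Of 11786 such sequences, 306 are named in loci under 10 kb and nowhere else. Of these 143 were higher in the IPs and 19 lower, where 41.9% of all sequences tested were higher and 19.9% lower. Their median log2 change was 0.78, against 0.70 over all sequences tested. The number called either way, 162, was 67 without TDRKH IP 1 and 44 without TDRKH IP 2.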

How the data were processed

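Small RNAs of 2 input and 2 TDRKH IP libraries were compared. The labels name TRIZOL extraction, a NEXTflex small RNA kit and single-end NextSeq 500 reads. The deposited files give, for each sequence of 18 to 36 nt, its read count and the names unitas assigned, with no further normalization seen in the values. Mapping settings and genome build are not stated there. Counts were divided equally among the names of a sequence and rounded, with merged cluster names as loci. edgeR 4.0.16 (R 4.3.3) tested them by quasi-likelihood with listed reads as library size, filterByExpr and Benjamini-Hochberg adjustment at 0.05. DESeq2 1.42.0 was an alternative. Python 3.11.15 with scipy 1.17.1 gave exact permutation tests. Named were the 15 loci with the most reads, the 6 largest non-overlapping called changes each way at 20 RPM or more, and the leading sequences of the first 8 loci and of the 3 largest changes each way. The members, lists and tests were chosen with earlier results of these data known. Tested on simulated data with 5211 features, the fit found 14 of 68 loci given a 1.25-fold change, 43 of 70 at 1.5-fold and 51 of 62 at 2-fold, and made 3 false calls.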

Additional observations from a re-analysis of the deposited data

How the results depend on the processing

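Loci called higher and lower, 369 and 22, were 593 and 3 with TMM factors, 599 and 0 with DESeq2's size factors (edgeR, 1 lower at an unadjusted p under 0.05), 589 and 0 with DESeq2 (0 lower unadjusted) and 241 and 30 with cluster reads as library size; the median log2 change was 2.31, 2.72, 2.72 and 0.25. Over all 5211 features, 782 were higher and 3141 lower in the main fit. In the same 4 alternatives these were 1885 and 2152, 2039 and 1906, 1706 and 1168, and 554 and 3202, so the counts moved beyond these loci too. With no filter the loci called were 116 and 4, and 230 and 2009 of 29304 features were called, where far more features were adjusted for. With sequences in 1 locus only they were 105 and 56 (median 0.14), and the log2 change of the summed reads was 0.20 (adjusted p = 0.0303, edgeR). With each distinct sequence counted once the median was 0.55. Of alternatives added after the data were seen, thinned IPs left 14 lower (1160 of 2251 features). Sequences without a noted mismatch left 10 lower (3130 of 5186 features) with a median of 0.65. Sharing among loci without a mismatch gave a median of 0.35. Leaving out each library gave 165 to 271 higher and 11 to 18 lower. The replicate number as a block gave 350 and 21 (747 and 3105 of 5211 features). It called chr2:65713224-65718627 lower (adjusted p = 0.00123, edgeR). The labels do not pair the libraries, and same-numbered deviations correlated at 0.16 over 611 loci and 0.02 over all features. The summed reads of the loci rose in each of the alternatives run. The cause of these shifts was not tested.

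T came first in 87.2% of reads with sequences in 1 locus only, 78.1% with each sequence counted once, 90.2% with the 6 left-out loci and 89.7% without mismatches, against 88.5%. A at position 10 was 56.7%, 43.6% and 42.4% under the first 3 of these and 51.6% without the first 10 loci, against 53.9%. Mean length was 25.7, 24.8 and 24.99 nt under the first 3 and 26.0 nt for reads of 24 to 32 nt, against 25.06 nt. The 162 sequences called were 51 with TMM factors, 28 with DESeq2 and 264 at a minimum of 5 RPM, and 44 to 161 with a library left out. An upper limit of 5000 bp left no locus, so it gave no value.

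Of the 26 named loci, 7 changed direction with TMM factors and DESeq2's size factors, 7 with sequences in 1 locus only and 6 with each distinct sequence counted once. With TMM and DESeq2 factors, chr2:65713224-65718627 was at 1.61 and 2.02, chr1:94550396-94556945 at 1.43 and 1.84, chr2:108283009-108289534 at 0.84 and 1.249, chr8:76987014-76995631 at 0.85 and 1.26, chr7:12439458-12447978 at 1.24 and 1.65, chr1:109657277-109663770 at 1.30 and 1.71 and chr8:33370134-33375873 at 1.40 and 1.81 on the log2 scale. With sequences in 1 locus only, chr1:24843004-24848302 was at -0.69, chr16:61871008-61877017 at -0.60, chr2:79172175-79177946 at -0.59, chr17:45160136-45167945 at -0.52, chr2:136442263-136449985 at -2.04, chr28:3354513-3362028 at -0.89 and chr8:33370134-33375873 at 0.070, of which those on chromosomes 17 and 28 and chr2:136442263-136449985 rest on 3 to 8 reads in each input. With each distinct sequence counted once, chr26:17967057-17974590 was at -0.036, chr1:24843004-24848302 at -0.58, chr8:81382054-81391012 at -0.058, chr2:79172175-79177946 at -0.12, chr2:136442263-136449985 at -0.10 and chr8:33370134-33375873 at 0.18. The filter's level was about 1.61 RPM, which is 10 reads at the median depth of the 4 libraries. The inputs lie below that depth, so fewer than 10 reads reach the level there. Loci that did not pass the filter were not tested.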
